A study of Rattus norvegicus with 96 samples.

Results

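The subunits of AMPA and NMDA glutamate receptors comprised 7 genes, Gria1, Gria2, Gria3, Gria4, Grin1, Grin2a and Grin2b, of 14217 genes that carried a single symbol on the array. They were chosen by symbol in the platform annotation, which gave them 15 of the 31099 probe sets, and each probe set was read on its own. The RNA came from P rats, selectively bred to prefer alcohol, and was measured on 96 arrays, 48 of the amygdala's central nucleus (CeA) and 48 of the accumbens shell (NAc shell). Ethanol rats had drunk ethanol in limited-access sessions, water rats had not, and tissue was taken 1, 6 or 24 h from the end of drinking. For ethanol rats there were 11, 10 and 10 CeA arrays and 10, 10 and 11 NAc shell arrays, in order of time. For water rats there were 6, 5 and 6 CeA arrays and 7, 5 and 5 NAc shell arrays. All groups were of this 1 rat line, and the labels do not say whether both regions came from the same animals or give the animals' age. Values are log2 array values, so a difference of 1 is a factor of 2, and they compare samples for 1 probe set, never different probe sets.

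AMPA receptors are assembled from products of the Gria genes and carry most of the fast excitatory current at central synapses. NMDA receptors are assembled from the obligatory Grin1 product with Grin2 products, pass calcium when glutamate and depolarization coincide, and start the synaptic changes that move AMPA receptors into and out of the synapse. In the CeA, which sends out the amygdala's signals for fear and withdrawal, and in the NAc shell, a striatal part of the reward system, these receptors sit mostly on GABA neurons, and ethanol is known to inhibit NMDA receptors.

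Promoter windows in RefSeq (build GRCr8, 250 bases before to 50 after the annotated start) were matched by symbol for 2 of the 7 genes, Gria4 and Grin1. They are shown because they were the matched windows, 1 of an AMPA and 1 of an NMDA receptor gene. The Gria4 window is chr8:10319832-10320131 and the Grin1 window is chr3:28528705-28529004, both on the minus strand and printed 5′ to 3′ along the gene. Capitals mark matches to the GC box letters GGGCGG and to the cyclic AMP response element half-site TGACG, read on both strands.
Gria4 promoter: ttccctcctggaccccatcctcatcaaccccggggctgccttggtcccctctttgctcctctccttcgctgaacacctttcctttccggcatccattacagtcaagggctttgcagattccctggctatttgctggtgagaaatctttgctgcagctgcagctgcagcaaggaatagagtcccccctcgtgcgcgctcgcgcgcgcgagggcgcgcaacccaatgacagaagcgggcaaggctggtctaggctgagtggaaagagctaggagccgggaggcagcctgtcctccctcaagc
Grin1 promoter: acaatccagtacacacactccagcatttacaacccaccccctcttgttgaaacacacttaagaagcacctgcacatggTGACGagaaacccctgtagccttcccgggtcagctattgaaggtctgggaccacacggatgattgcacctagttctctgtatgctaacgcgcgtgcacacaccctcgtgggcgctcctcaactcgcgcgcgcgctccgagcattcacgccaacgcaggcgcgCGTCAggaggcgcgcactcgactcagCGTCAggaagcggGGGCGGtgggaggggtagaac
The Gria4 window held 60.3% G and C, 15 CpG dinucleotides and no match to either motif. The Grin1 window held 59.7% G and C and 25 CpG dinucleotides, with a GC box at positions 280 to 285 and half-sites at positions 79 to 83, 241 to 245 and 267 to 271, and no match overlapped another. Across all 33365 windows the median was 51.7% G and C and 7 CpG, 33.14% held the GC box and 21.22% the half-site. These matches describe letters only.

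A probe set was tested in a region when its mean over that region's arrays lay above the 40th percentile of all non-control probe sets, which left 18625 probe sets. Of the 15 member probe sets, 11 passed this filter in the CeA, 13 in the NAc shell and 12 in the fit of both regions. Those below it read low: the Gria4 probe set 1369384_at averaged 5.58 ± 0.20 in each region, and the Grin2a probe set 1368985_at averaged 4.87 ± 0.14 over CeA arrays and 5.31 ± 0.13 over NAc shell arrays (SD, n = 48 each). The Grin2a probe set 1387400_at (6.72 ± 0.15) and the Grin2b probe set 1369745_at (6.50 ± 0.11) fell under the limit of 6.96 in the CeA (SD, n = 48 each), and averaged 7.58 ± 0.19 and 7.30 ± 0.10 in the NAc shell, above its limit of 7.09.

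The markers of the labelled regions were borne out in part. All 8 tested medium spiny neuron markers, Drd1 and Drd2 among them, were lower in the CeA than in the NAc shell, with a median difference of -2.37 in ethanol rats and -2.53 in water rats. Of 5 tested central amygdala markers, Crh (2.73 and 2.46 in ethanol and water rats) and Prkcd (0.86 and 0.69) were higher in the CeA, whereas Cartpt (-2.72 and -2.98) and Nts (-0.49 and -0.45) were lower, and Sst was lower in water rats (-0.45). Only 4 of these 5 passed the filter in the NAc shell alone, so the other entered the fit of both regions through its CeA level. At an adjusted p under 0.05, 38.7% of all tested probe sets were higher and 43.3% lower in the CeA of ethanol rats. In water rats these shares were 36.1% and 39%. The marker differences are given as a description. Median values per array ran from 7.68 to 7.82 for CeA arrays and from 7.78 to 7.86 for NAc shell arrays, while lower quartiles (5.75 to 5.88 and 6.01 to 6.16) did not overlap. Whether the regions were normalized together is not stated in the labels. The 3 prime minus 5 prime difference of the Gapdh control probe sets, a measure of RNA integrity, was 2.91 ± 0.53 over CeA arrays and 1.81 ± 0.25 over NAc shell arrays (SD, n = 48 each). By their correlation with the other arrays of their region, 3 arrays of the CeA and 5 of the NAc shell were low. In the CeA the array title numbers form 4 runs, read from where the order of times starts over. These runs hold 5, 10, 10 and 6 ethanol arrays and 3, 6, 6 and 2 water arrays, and the last has water arrays at 6 h only. By run, from 1 to 4, the Gapdh difference averaged 2.33, 2.51, 3.56 and 3.01 in ethanol rats and 2.68, 2.52, 3.27 and 3.34 in water rats. CeA results are therefore given without and with the run as a block in the fit.

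**Figure D1:**
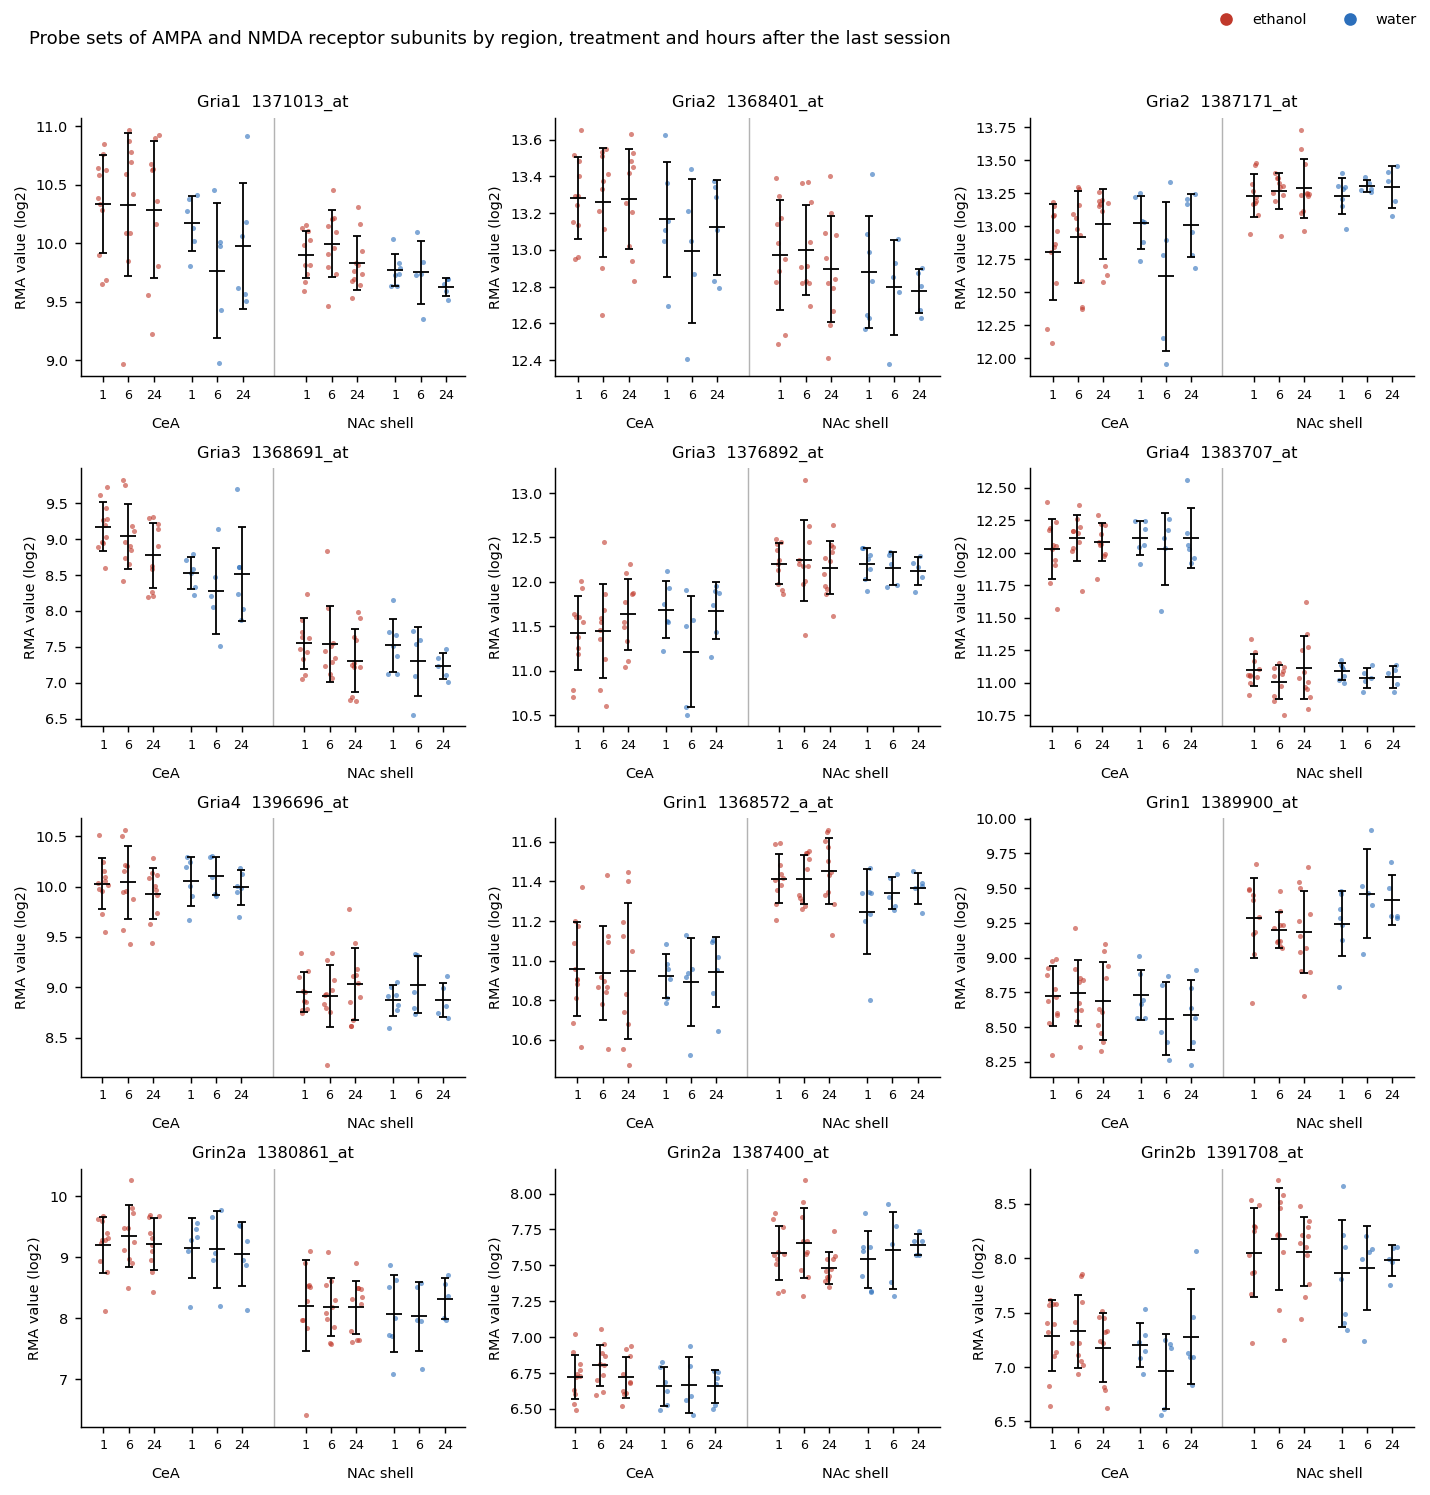
Log2 values (RMA) of the 12 member probe sets of the fit of both regions, 1 point per array, against hours after the last session (1, 6, 24) in ethanol rats (red) and water rats (blue) of the CeA (left of each panel) and NAc shell (right), where bars give the mean ± SD of a group. Each panel has its own axis. Grin2a 1387400_at, which lay under the test limit in the CeA, separates the regions in both treatments, and both Gria4 probe sets do in water rats. Over all tested probe sets 8.99% did so in ethanol and 15.9% in water rats. Gria3 1368691_at lies higher in ethanol than in water rats of the CeA, with overlap.

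The question of drinking was asked first in the CeA, over the mean of the 3 times. Gria3 encodes an AMPA receptor subunit, and its probe set 1368691_at read higher in ethanol rats, while its other probe set, 1376892_at, did not. In ethanol rats, 1368691_at had a lowest, median and highest value of 8.59, 9.20 and 9.72 at 1 h, of 8.42, 8.93 and 9.82 at 6 h, and of 8.19, 8.77 and 9.31 at 24 h. In water rats it had 8.22, 8.56 and 8.79 at 1 h, values of 7.51, 8.05, 8.20, 8.47 and 9.14 in the 5 arrays at 6 h, and 7.87, 8.42 and 9.70 at 24 h. The ethanol and water ranges overlapped at every time, and 28 of 31 ethanol arrays exceeded the mean of the water arrays of the same time. Group means in ethanol rats were 9.18 ± 0.34, 9.04 ± 0.45 and 8.77 ± 0.45 at 1, 6 and 24 h (SD, n = 11, 10 and 10), and in water rats 8.53 ± 0.22, 8.27 ± 0.60 and 8.51 ± 0.66 (SD, n = 6, 5 and 6). All 3 ethanol means stood above all 3 water means. However, no 2 neighbours in that order differed by more than the larger of their SDs. Among tested members of the CeA, the ethanol means likewise stood above the water means for Gria1, Gria2 1368401_at and Grin2a 1380861_at. How many probe sets of the array share this order was not counted.

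Without the run block, 0 of 18625 probe sets (0%) and 0 of 11 member probe sets passed an adjusted p of 0.05 in the CeA. At an unadjusted p under 0.05 there were 1519 (8.16%) of all and 3 of the members. Those 3 were Gria3 1368691_at, higher by 0.56 ± 0.13 (SE, adjusted p = 0.190), Gria1, higher by 0.35 ± 0.15 (adjusted p = 0.576), and Gria2 1368401_at, higher by 0.18 ± 0.08 (adjusted p = 0.597). With the run as a block, 48 of 18625 probe sets passed (0.258%, with 0.231% higher and 0.0268% lower), 17% were under an unadjusted p of 0.05 with 3 members among them, and of the 11 member probe sets 1 did, Gria3 1368691_at. Its difference was 0.59 ± 0.11 (SE, 95% confidence interval 0.36 to 0.81, adjusted p = 0.0102), and 29 of 31 ethanol arrays exceeded the water mean within the same run. That probe set and its disagreement with 1376892_at were already known from these arrays when the subunits were chosen. With the block, Gria1 differed by 0.40 ± 0.11 (adjusted p = 0.103) and Gria2 1368401_at by 0.20 ± 0.07 (adjusted p = 0.202), which did not pass. The call of Gria3 was also made without the block when array weights were used (0.62, adjusted p = 0.0112) or when the water array with title number 14 at 24 h, which holds the value of 9.70, was left out (0.64, adjusted p = 0.0246).

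Within the runs the difference in Gria3 1368691_at kept its sign. Ethanol and water arrays averaged 8.79 ± 0.17 and 8.05 ± 0.18 in run 1 (SD, n = 5 and 3), 9.09 ± 0.44 and 8.43 ± 0.25 in run 2 (n = 10 and 6), 9.19 ± 0.48 and 8.86 ± 0.49 in run 3 (n = 10 and 6) and 8.71 ± 0.36 and 7.86 ± 0.49 in run 4 (n = 6 and 2). In runs 2 and 3 the treatments overlapped. The 5 ethanol arrays of run 1 lay above its 3 water arrays, as they did for Gria1 and Grin1 1368572_a_at. The 6 ethanol arrays of run 4 lay above its 2 water arrays, as they did for Gria2 1368401_at, Grin2b 1391708_at and Gria3 1376892_at. The share of all probe sets separated in this way was not counted, so separation is not taken as particular to Gria3 1368691_at. Fits within 1 run gave 0.75, 0.65, 0.31 and 0.72 for runs 1 to 4, with adjusted p of 0.137, 0.433, 0.997 and 0.803. These fits had time in the model. The water arrays of run 4 are all of 6 h and its ethanol arrays of all 3 times, so its fit rests on the arrays of 6 h. The means of run 4 mix treatment with time. For 1376892_at the ethanol minus water differences within runs were -0.02, 0.07, -0.14 and 0.33. Its lowest values stood in run 4 in both treatments, at a mean of 10.87 ± 0.25 in ethanol and 10.55 ± 0.06 in water arrays (SD, n = 6 and 2).

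**Figure D2:**
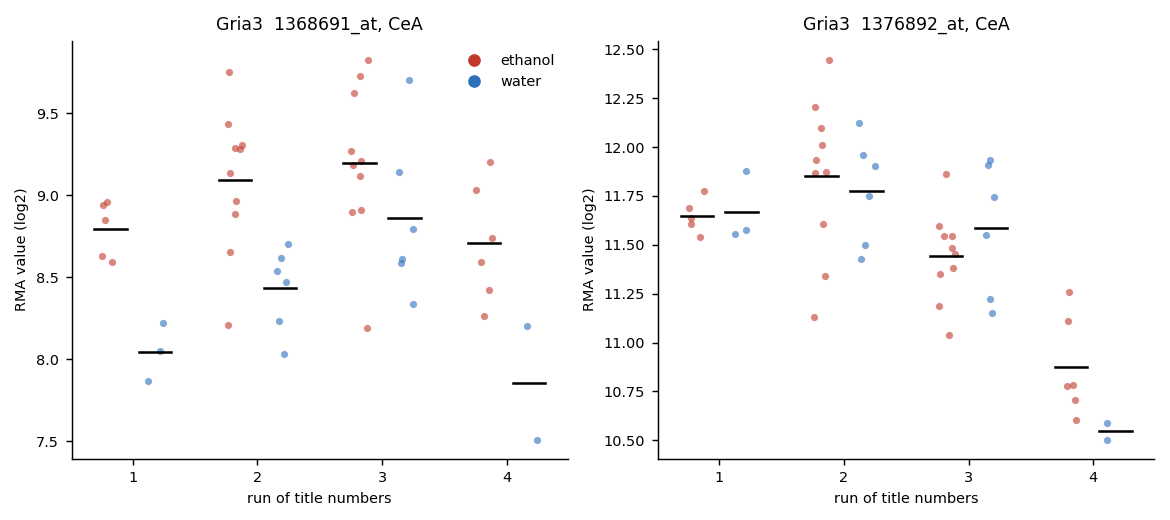
Log2 values of both Gria3 probe sets on the CeA arrays, 1 point per array, by run of title numbers, with ethanol rats (red) left of water rats (blue) and a bar at each mean. For 1368691_at the ethanol mean lies above the water mean in each of the 4 runs, by 0.34 to 0.85, and for 1376892_at the differences lie between -0.14 and 0.33. In run 4, which gave the 0.85, the water arrays are of 6 h only and the ethanol arrays of all times.

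Gria1, the AMPA subunit recruited to synapses in several forms of potentiation, had 1 probe set. In the CeA of ethanol rats its lowest, median and highest values were 9.65, 10.38 and 10.85 at 1 h, 8.96, 10.50 and 10.97 at 6 h, and 9.23, 10.49 and 10.92 at 24 h. In water rats they were 9.80, 10.20 and 10.41 at 1 h and 9.51, 9.84 and 10.92 at 24 h, and the 5 arrays at 6 h had 8.98, 9.43, 9.97, 10.01 and 10.45. The ranges overlapped at every time, and 24 of 31 ethanol arrays exceeded the mean of the water arrays of that time. Within runs 1 to 4 the ethanol minus water difference of Gria1 was 0.75, 0.50, 0.14 and 0.38. Gria2 encodes the subunit that keeps AMPA receptors from passing calcium. Its probe set 1368401_at averaged 13.27 ± 0.26 in ethanol and 13.10 ± 0.31 in water rats of the CeA (SD, n = 31 and 17), and its other probe set 1387171_at averaged 12.91 ± 0.33 and 12.90 ± 0.38. The remaining 7 tested member probe sets of the CeA, of Gria3, Gria4, Grin1, Grin2a and Grin2b, had estimates between -0.05 and 0.17 in both fits, and none passed. Of the 11 tested member probe sets 8 had an estimate above 0 without the block, against 49.3% of all probe sets, and 10 with it, against 50%.

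At the single times no member passed in the CeA, where 0 of 18625 probe sets passed at 1, 6 or 24 h without or with the block (0%). At an unadjusted p under 0.05 there were 1, 3 and 0 of the 11 members at 1, 6 and 24 h, against 5.43%, 8.22% and 0.655% of all probe sets, and with the block 2, 1 and 1, against 7.6%, 9.07% and 2.42%. With the block the estimate of Gria3 1368691_at was 0.84 ± 0.19 at 1 h (SE, adjusted p = 0.167), 0.59 ± 0.20 at 6 h (adjusted p = 0.540) and 0.33 ± 0.19 at 24 h (adjusted p = 1.00). Whether these differ was tested as an ethanol by time interaction, which no member passed, with 0 of 18625 probe sets called (0%) and 250 (1.34%) at an unadjusted p under 0.05, 0 of the 11 member probe sets among them (0 with the block, against 2.15%). Time alone, within ethanol rats, was called for 11 probe sets (0.0591%) and 0 of 11 members, and within water rats for 0 (0%) and 0 of 11. With the block these time counts were 18 (0.0966%) and 0 over all probe sets, again with 0 members. At an unadjusted p under 0.05 time was under the limit for 0 members in ethanol rats (3.51% of all) and 0 in water rats (3.32%), and with the block for 1 (5.1%) and 0 (2.64%).

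In the NAc shell 0 of 18625 probe sets (0%) and 0 of 13 member probe sets passed for ethanol against water over the 3 times. At an unadjusted p under 0.05 there were 2061 (11.1%) of all and 2 of the members, Gria1 and Grin1 1368572_a_at, and estimates lay above 0 for 9 of 13 members and 53.4% of all. Gria1 had lowest, median and highest values of 9.59, 9.90 and 10.16 at 1 h, 9.46, 10.03 and 10.45 at 6 h, and 9.53, 9.76 and 10.31 at 24 h in ethanol rats. In water rats it had 9.63, 9.73 and 10.03 at 1 h, values of 9.35, 9.73, 9.74, 9.84 and 10.10 at 6 h, and values of 9.51, 9.59, 9.65, 9.69 and 9.70 at 24 h. All 3 ethanol means stood above all 3 water means with overlapping ranges, and 25 of 31 ethanol arrays exceeded the water mean of their time. Among tested members of the NAc shell, this order of means also held for Gria2 1368401_at, Grin1 1368572_a_at and Grin2b 1391708_at. Its share over all probe sets was not counted. The difference of Gria1 was 0.19 ± 0.07 (SE, adjusted p = 0.280). Grin1, the subunit every NMDA receptor needs, read 11.43 ± 0.14 in ethanol and 11.31 ± 0.15 in water rats on 1368572_a_at (SD, n = 31 and 17), a difference of 0.11 ± 0.04 (SE, adjusted p = 0.364). On its other probe set, 1389900_at, it read 9.22 ± 0.25 in ethanol and 9.36 ± 0.25 in water rats, a difference of -0.15 ± 0.07 (adjusted p = 0.454). Gria3 1368691_at differed by 0.12 ± 0.12 in the NAc shell (adjusted p = 0.762). No member passed at a single time, for the interaction or for time within a treatment in the NAc shell, where time within ethanol rats was called for 7 probe sets (0.0376%) and each other of these comparisons for 0 (0%). At an unadjusted p under 0.05 there were 1, 1 and 0 of 13 members for ethanol at 1, 6 and 24 h (1.88%, 5.23% and 3.74% of all), 0 for the interaction (0.864%) and 0 for time in ethanol (3.92%) and in water rats (3.64%).

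The ethanol effect in the CeA minus that in the NAc shell was tested in the fit of both regions. Of 18625 probe sets 1 passed (0.00537%) and of 12 member probe sets 0. At an unadjusted p under 0.05 there were 9.23% of all and 2 of the members. The difference of effects was 0.44 ± 0.18 for Gria3 1368691_at (SE, 95% confidence interval 0.08 to 0.81, adjusted p = 0.473). It was 0.24 ± 0.10 for Grin1 1389900_at (adjusted p = 0.478). For Grin2a 1387400_at, which lay under the limit in the CeA, it was 0.11 ± 0.07, given with no p. An ethanol effect on a member was therefore not shown to differ between the regions, and the interval for Gria3 runs from near 0 to a value above its whole estimate in the CeA.

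**Figure D3:**
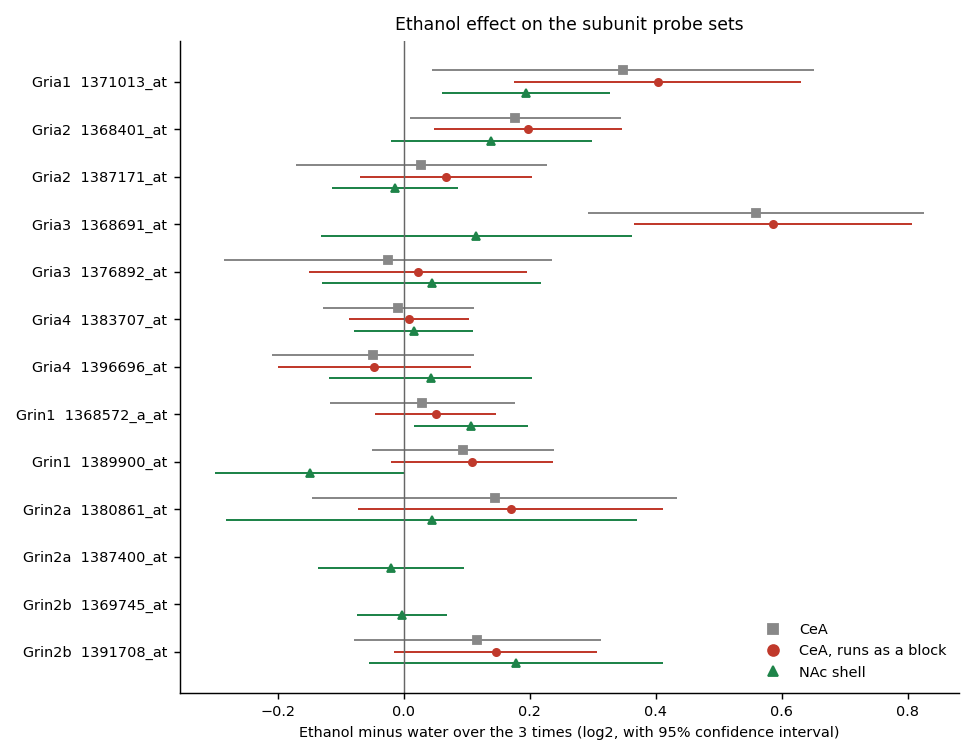
Ethanol minus water over the 3 times for each tested member probe set, on a log2 scale with 95% confidence intervals from limma, in the CeA (grey squares), the CeA with runs as a block (red circles) and the NAc shell (green triangles). Gria3 1368691_at in the CeA lies farthest right, at 0.56 without and 0.59 with the block, and passed with the block, and no other point passed.

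Because probe sets of 1 gene differed, the ethanol effect was set against itself within each array. For each gene with a pair of tested probe sets in a region, the within-array difference of the pair was compared between ethanol and water rats by a two-sided permutation test of labels within times with 100000 resamples, 10 pairs in all. For Gria3 in the CeA, 1368691_at minus 1376892_at averaged -2.25 ± 0.46, -2.41 ± 0.36 and -2.86 ± 0.20 at 1, 6 and 24 h in ethanol rats and -3.16 ± 0.32, -2.94 ± 0.42 and -3.17 ± 0.74 in water rats (SD). At 1 h the groups did not overlap, with a lowest ethanol value of -2.72 and a highest water value of -2.76, and at 6 and 24 h they overlapped. The shift was 0.58 (permutation p = 9e-05, adjusted over the 10 pairs 0.0009) and 0.57 with labels permuted within times and runs (adjusted p = 0.0003). Since the disagreement was known beforehand from these same arrays, these p-values test the values that singled out the pair and add no independent support. The SD of the Gria3 difference within groups was 0.42.

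A second pair passed the same test. For Grin1 in the NAc shell, 1368572_a_at minus 1389900_at had a lowest, median and highest value of 1.74, 2.05 and 2.73 at 1 h, 1.98, 2.23 and 2.46 at 6 h, and 2.00, 2.23 and 2.61 at 24 h in ethanol rats. In water rats these were 1.45, 1.92 and 2.45 at 1 h, 1.52, 1.81 and 2.23 at 6 h, and 1.77, 1.94 and 2.09 at 24 h. The groups overlapped at each time. The shift was 0.26 (permutation p = 0.0015, adjusted p = 0.0075), made of estimates of 0.11 and -0.15, neither of which passed alone. For Gria2 in the CeA the shift of 1368401_at against 1387171_at was 0.15 (adjusted permutation p = 0.0593). It passed as the weighted mean with labels permuted within times and runs (0.14, adjusted permutation p = 0.00837). It also passed when the arrays of low correlation were left out (adjusted permutation p = 0.0249). The other 7 pairs, which include Gria3 in the NAc shell (0.07, adjusted p = 0.706) and Grin1 in the CeA (-0.06, adjusted p = 0.475), did not pass.

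**Figure D4:**
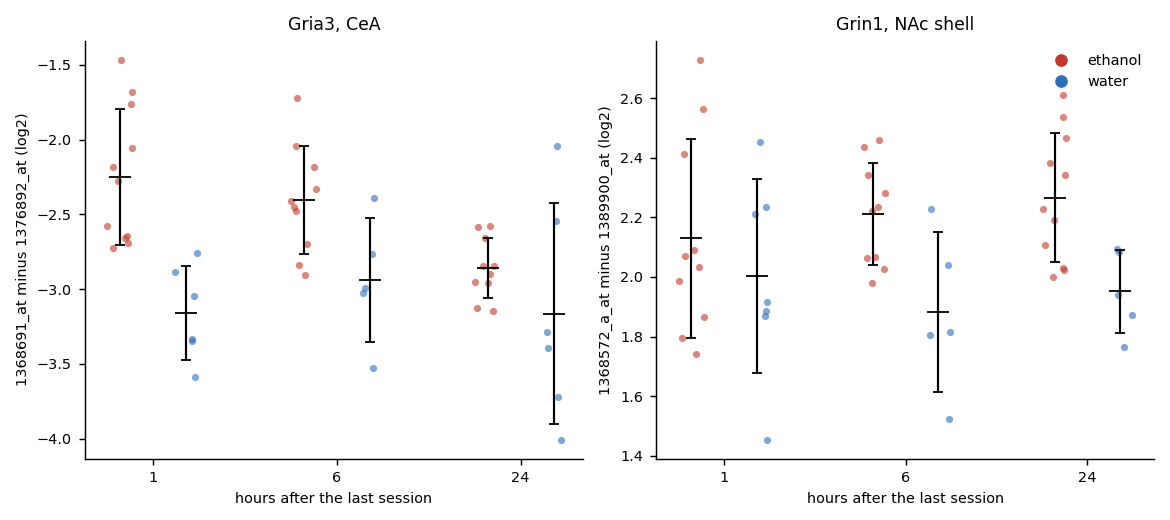
Within-array log2 difference of the probe sets of Gria3 in the CeA (left) and of Grin1 in the NAc shell (right) against hours after the last session, 1 point per array, with ethanol rats (red) left of water rats (blue) and bars for the mean ± SD. The Gria3 difference averages -2.25, -2.41 and -2.86 in ethanol rats, above the -3.16, -2.94 and -3.17 of water rats at the same times.

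Across arrays, with group means removed, probe sets of 1 gene moved together to different degrees. In the CeA (n = 48) Pearson's r was 0.82 for Gria2 (Spearman's rho 0.78) and 0.55 for Gria3 (rho 0.50), both with an adjusted permutation p of at most 0.0005 over 10 relations. Within runs 1 to 4, r was 0.02, 0.93, 0.82 and 0.75 for Gria2 and -0.05, 0.80, 0.59 and 0.58 for Gria3, so r was near 0 among the 8 arrays of run 1. Without the 2 arrays farthest from the median of the first probe set, r was 0.79 for Gria2 and 0.56 for Gria3. For the Gria4 pair in the CeA r was 0.05 (rho 0.04, adjusted permutation p = 0.746 and 0.814), and within runs it was 0.67, -0.08, 0.30 and -0.15. In the NAc shell r of the Gria4 pair was 0.40 (rho 0.23, adjusted permutation p = 0.00774 and 0.127), and 0.28 without the 2 farthest arrays. The Grin1 pair had r of 0.26 there (rho 0.27, adjusted permutation p = 0.0846 and 0.0848), which did not pass. In the CeA its r was 0.68, and 0.09, 0.78, 0.71 and 0.25 within runs 1 to 4. The other NAc shell pairs had r of 0.42 (Gria2), 0.60 (Gria3), 0.70 (Grin2a) and 0.55 (Grin2b). Of 24 relations with the Gapdh end difference, group means removed, 2 passed: Grin1 1368572_a_at in the CeA (r = -0.48, rho -0.50, adjusted permutation p = 0.00888 and 0.0096) and Gria3 1368691_at in the NAc shell (r = -0.50, rho -0.45, adjusted permutation p = 0.0072 and 0.0179). Without the 2 farthest arrays r was -0.49 and -0.50, and within runs 1 to 4 it was -0.60, -0.03, -0.37 and 0.73 for Grin1. With run means removed as well, of 11 relations in the CeA 1 passed, Gria4 1396696_at (r = 0.63, rho 0.53, adjusted permutation p = 0.00011 and 0.00088), with r of 0.54 without the 2 farthest arrays and 0.69, 0.51, 0.47 and 0.82 within runs 1 to 4. Grin1 1368572_a_at, which had passed in the CeA, did not pass with run means removed (r = 0.02, rho 0.02, adjusted permutation p = 0.908 and 0.971). For Gria3 1368691_at in the CeA r was 0.17 (adjusted permutation p = 0.384), and -0.12 with run means removed (adjusted permutation p = 0.908). The part of RNA integrity in the differences was not tested by these relations.

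The regional comparison, CeA minus NAc shell, asks how the receptor make-up of the tissues differs. Most of the array differed: 15275 of 18625 probe sets passed in ethanol rats (82%) and 13985 in water rats (75.1%), so the members' counts, 12 of 12 and 11 of 12, do not set them apart. Of these, Grin2a 1387400_at lay under the limit in the CeA and entered through its NAc shell level, so its difference is given below as values with no p. In ethanol rats 6 member probe sets were higher and 6 lower in the CeA (38.7% and 43.3% of all), and in water rats 5 and 6 (36.1% and 39%). In this bulk tissue fewer cells of a type and less RNA per cell cannot be told apart, and region cannot be told apart from the Gapdh end difference or from any processing of each region on its own. Normalizing both regions together kept the direction of all 12.

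Gria4, whose product gives AMPA receptors fast kinetics, was about 2-fold higher in the CeA on both tested probe sets. On 1383707_at it had a lowest, median and highest value of 11.57, 12.08 and 12.39 in CeA and 10.75, 11.06 and 11.62 in NAc shell arrays of ethanol rats, which overlapped only between 11.57 and 11.62. In water rats these were 11.56, 12.06 and 12.56 in the CeA and 10.93, 11.08 and 11.18 in the NAc shell, with no overlap. The difference was 1.00 ± 0.05 in ethanol rats (SE, adjusted p = 1.62e-36) and 1.03 ± 0.06 in water rats (adjusted p = 1.25e-27). On 1396696_at it was 1.04 ± 0.07 in ethanol rats (adjusted p = 1.17e-25) and 1.13 ± 0.09 in water rats (adjusted p = 1.09e-19), again with no overlap in water rats.

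Gria3 disagreed in direction between its probe sets. On 1368691_at it was higher in the CeA, with a lowest, median and highest value of 8.19, 8.96 and 9.82 in CeA and 6.74, 7.43 and 8.84 in NAc shell arrays of ethanol rats. In water rats these were 7.51, 8.47 and 9.70 in the CeA and 6.55, 7.37 and 8.15 in the NAc shell. The difference was 1.53 ± 0.11 in ethanol rats (SE, adjusted p = 2.01e-23) and 1.09 ± 0.15 in water rats (adjusted p = 3.38e-10). On 1376892_at Gria3 was lower in the CeA, by -0.70 ± 0.09 in ethanol rats (adjusted p = 1.35e-10) and -0.63 ± 0.13 in water rats (adjusted p = 7.75e-06). Its medians there were 11.55 for CeA and 12.20 for NAc shell arrays of ethanol rats, and 11.57 for CeA and 12.21 for NAc shell arrays of water rats.

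Gria2 disagreed likewise. The probe set 1368401_at was higher in the CeA, by 0.32 ± 0.07 in ethanol rats (SE, adjusted p = 2.63e-05) and 0.28 ± 0.09 in water rats (adjusted p = 0.00622). The probe set 1387171_at was lower, by -0.35 ± 0.07 in ethanol rats (adjusted p = 1.78e-06) and -0.39 ± 0.09 in water rats (adjusted p = 7.36e-05). Gria1 was higher in the CeA of ethanol rats by 0.41 ± 0.10 (adjusted p = 0.000131). In water rats its difference was 0.25 ± 0.13 (adjusted p = 0.0806), which did not pass. It was 0.15 ± 0.11 with the run block (adjusted p = 0.194) and 0.19 without the CeA water array with title number 14 at 24 h (adjusted p = 0.183). It passed without the low-correlation arrays (0.28, adjusted p = 0.0435), with array weights (0.28, adjusted p = 0.0143) and without the CeA water array with title number 17 at 6 h (0.32, adjusted p = 0.0275).

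Among the NMDA receptor genes, Grin1 was lower in the CeA on both probe sets. On 1368572_a_at its lowest, median and highest values were 10.47, 10.90 and 11.45 in CeA and 11.13, 11.43 and 11.66 in NAc shell arrays of ethanol rats, and 10.52, 10.95 and 11.13 in CeA and 10.80, 11.34 and 11.47 in NAc shell arrays of water rats. The difference was -0.48 ± 0.05 in ethanol rats (SE, adjusted p = 2.61e-14) and -0.40 ± 0.07 in water rats (adjusted p = 3.12e-07). On 1389900_at it was -0.50 ± 0.06 (adjusted p = 6.06e-12) in ethanol rats and -0.75 ± 0.08 (adjusted p = 3.53e-13) in water rats. The ranges of CeA and NAc shell overlapped in both treatments.

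Grin2b, the subunit that gives NMDA receptors slow decay and prevails early in development, was also lower in the CeA. On 1391708_at its lowest, median and highest values were 6.62, 7.32 and 7.86 in CeA and 7.22, 8.21 and 8.71 in NAc shell arrays of ethanol rats. In water rats they were 6.56, 7.15 and 8.06 in CeA and 7.23, 7.99 and 8.66 in NAc shell arrays. The difference was -0.83 ± 0.09 in ethanol rats (SE, adjusted p = 6.39e-14) and -0.77 ± 0.12 in water rats (adjusted p = 4.45e-08). The Grin2b probe set that missed the joint filter, 1369745_at, read 6.52 ± 0.11 in CeA and 7.30 ± 0.12 in NAc shell arrays of ethanol rats (SD, n = 31 each) and was not tested there.

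Grin2a, the subunit that rises as NMDA receptors mature, split by probe set. On 1380861_at it was higher in the CeA, with a lowest, median and highest value of 8.11, 9.28 and 10.26 in CeA and 6.41, 8.28 and 9.09 in NAc shell arrays of ethanol rats. The difference was 1.07 ± 0.13 in ethanol rats (SE, adjusted p = 5.86e-12) and 0.97 ± 0.18 in water rats (adjusted p = 1.15e-06). On 1387400_at it was lower in the CeA, with 6.49, 6.74 and 7.05 in CeA and 7.29, 7.54 and 8.09 in NAc shell arrays of ethanol rats. Its CeA mean of 6.72 lay under the limit of 6.96 there, so the filter had kept it for its NAc shell level. The regions did not overlap in either treatment, with a difference of -0.83 in ethanol and -0.94 in water rats, given as a description. CeA and NAc shell arrays did not overlap for 1 of 12 member probe sets in ethanol rats, against 8.99% of all tested, and for 3 of 12 in water rats (both of Gria4 and this one), against 15.9%, and this probe set is the 1 in ethanol rats. Of the 5 genes with a pair of probe sets in the fit of both regions, Gria2 and Gria3 changed direction with the probe set, Gria4 and Grin1 did not, and for Grin2a the opposite direction rests on the probe set under the CeA limit.

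**Figure D5:**
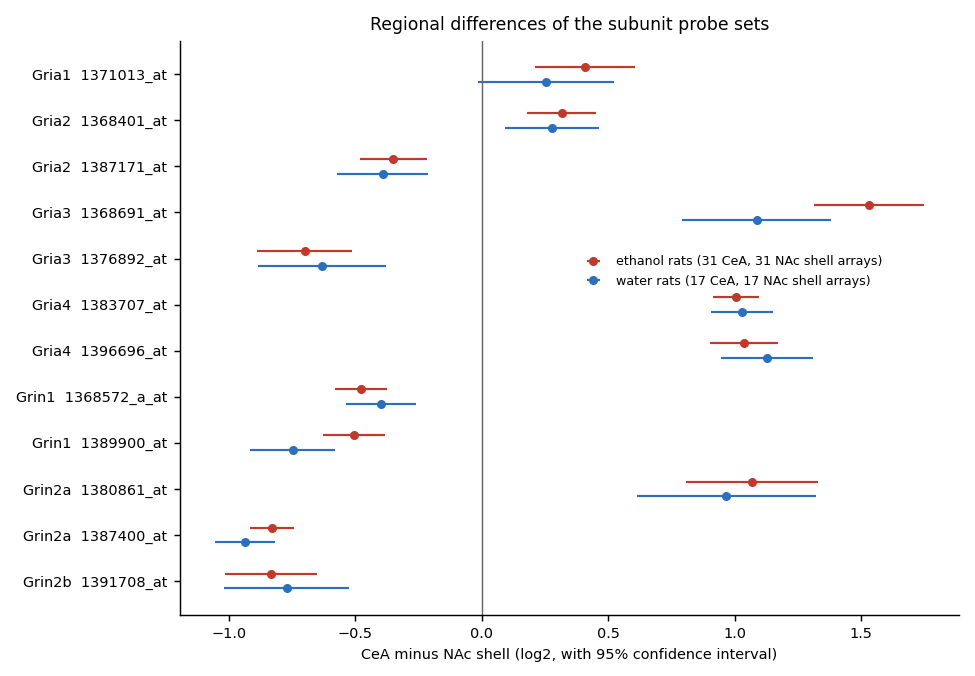
CeA minus NAc shell on a log2 scale with 95% confidence intervals from limma, for the 12 member probe sets of the fit of both regions, in ethanol rats (red) above water rats (blue). Values right of 0 are higher in the CeA. Gria4 lies near 1 on both probe sets, and Gria2 and Gria3 lie on both sides of 0 depending on the probe set. Grin2a also lies on both sides, but its probe set left of 0, 1387400_at, lay under the limit in the CeA. The interval of that probe set is shown as a description only.

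Other genes of the receptors' surroundings were counted in lists, each gene by its tested probe set with the highest mean. In the CeA of ethanol rats relative to the NAc shell, 14 of 20 tested genes of postsynaptic scaffold and kinases were lower and 3 higher, with a median of -0.52 against -0.03 for all probe sets. In water rats 13 were lower and 4 higher, with a median of -0.54 against -0.01. Over all tested probe sets 43.3% were lower and 38.7% higher in ethanol rats, and 39% and 36.1% in water rats. The 3 with the smallest p were the scaffold proteins Dlg1 (-0.87 in ethanol and -0.85 in water rats) and Shank3 (-1.10 and -1.17) and the kinase subunit Camk2b (-0.84 and -0.84), all lower in the CeA. Medium spiny neuron markers were lower in the CeA over the same arrays, with a summed level of 13.18 to 15.01 in CeA and 15.07 to 16.39 in NAc shell arrays of ethanol rats, and of 13.17 to 14.94 in CeA and 15.39 to 16.17 in NAc shell arrays of water rats. Their part in the receptor and scaffold differences was not tested.

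Of 18 tested AMPA receptor partner proteins, 7 were higher and 9 lower in the CeA of ethanol rats, and 7 and 8 in water rats, with medians of -0.05 and 0.07. The 3 with the smallest p were lower in the CeA, namely Cpt1c (-0.78 and -0.79 in ethanol and water rats), the auxiliary subunit Shisa9 (-1.28 and -1.21) and the auxiliary subunit Gsg1l (-0.56 and -0.55). Of 6 tested other ionotropic subunits, 3 were higher and 3 lower in ethanol rats, and 2 and 3 in water rats (medians -0.05 and -0.28). The kainate subunits Grik1 (2.29 and 2.31) and Grik4 (0.65 and 0.75) were higher, Grin2c was lower in ethanol rats (-0.65), and the kainate subunit Grik5 was lower in water rats (-1.07). Of 4 tested metabotropic receptors 1 was higher and 2 lower in each treatment (medians -0.49 and -0.42), with Grm4 (-1.04 and -1.19) and Grm5 (-1.03 and -0.93) lower and Grm3 (0.31 and 0.36) higher. Of 7 tested genes of glutamate and D-serine transport and synthesis, 3 were higher and 4 lower in each treatment (medians -0.13 and -0.15). The vesicular transporter Slc17a6 led in water rats (2.30), and the glutamine transporter Slc38a1 led in ethanol rats in the other direction (-0.37). These shares stand against the 82% and 75.1% called over the array. By direction, 38.7% of the array were higher and 43.3% lower in ethanol rats, and 36.1% and 39% in water rats.

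For ethanol against water over the 3 times, 0 genes passed in each of these 5 lists, in the CeA without and with the run block and in the NAc shell. In the CeA 16 of 20 scaffold and kinase genes had an estimate above 0, as did 49.3% of all probe sets without the block. Their median was 0.08 (0.12 with the block) against 0.00 for all probe sets. Genes of a list are measured on the same arrays, so their signs are not independent. The smallest p there belonged to the scaffold gene Dlg4, at 0.13 ± 0.08 (SE, adjusted p = 0.685) and 0.16 ± 0.06 with the block (adjusted p = 0.192). For AMPA receptor partners 9 of 18 were above 0 with a median of 0.00, and the smallest p belonged to Olfm3, at -0.24 ± 0.10 (adjusted p = 0.559). The median was 0.06 for 5 other ionotropic subunits, 0.04 for 4 metabotropic receptors and -0.01 for 7 transport and synthesis genes.

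Several cell type marker lists had estimates wholly or mostly of 1 sign for ethanol against water in the CeA, although no marker passed. Over all probe sets 49.3% had an estimate above 0 without the block. Without the block all 5 tested central amygdala markers (median 0.29) and all 8 medium spiny neuron markers (median 0.15) had estimates above 0, while 4 of 5 oligodendrocyte markers (median -0.13), 6 of 7 microglia markers (median -0.15), 4 of 4 meningeal fibroblast markers (median -0.16) and 3 of 3 thalamic and hypothalamic markers (median -0.25) had estimates below 0. The summed level of the central amygdala markers spanned 11.76 to 13.99 in ethanol and 11.60 to 13.56 in water arrays, that of the medium spiny neuron markers 13.18 to 15.01 and 13.17 to 14.94, and that of the thalamic and hypothalamic markers 10.73 to 12.79 and 10.76 to 12.88. The microglia sum spanned 12.084 to 12.996 in ethanol and 12.157 to 13.078 in water arrays, the oligodendrocyte sum 15.23 to 16.34 and 14.99 to 16.36, and the meningeal sum 9.12 to 10.40 and 9.23 to 10.35. For ethanol against water in the CeA the other marker medians were -0.03 for neurons, 0.01 for GABA neurons, 0.05 for cortical and basolateral excitatory neurons, -0.03 for astrocytes, -0.02 for oligodendrocyte precursors and -0.01 for vessels. Among the GABA neuron markers, Gad2, an enzyme of GABA synthesis, had an estimate of 0.36 ± 0.11 (SE, adjusted p = 0.360) and 0.38 ± 0.10 with the run block (adjusted p = 0.0592), against 0.01 for Gad1 and 0.01 for Slc32a1 without it. With the block the medians were 0.35 for central amygdala, 0.18 for medium spiny, 0.04 for GABA and -0.29 for thalamic and hypothalamic neurons, -0.18 for oligodendrocytes, -0.16 for microglia and -0.18 for meningeal fibroblasts. General neuronal markers spanned 15.20 to 15.46 and 15.22 to 15.52, and markers of GABA neurons 14.41 to 14.76 and 14.45 to 14.73. Every one of these sums overlapped widely between ethanol and water, and their part in the Gria3 difference was not tested. In the regional comparison, markers of oligodendrocytes were higher in the CeA for 4 of 5 genes in ethanol rats (median 0.79) and those of astrocytes for 4 of 6 (median 0.26), microglia for 4 of 6 (median 0.33), oligodendrocyte precursors for 2 of 2 (median 0.44), vessels for 2 of 5 (median 0.14) and meningeal fibroblasts for 2 of 4 (median 0.25). Neuronal markers were higher for 1 and lower for 2 of 5 (median -0.12), GABA neuron markers higher for 2 of 3 (median 0.22), cortical and basolateral excitatory markers higher for 2 of 2 (median 0.95), and thalamic and hypothalamic markers higher for 1 and lower for 1 of 3 (median 0.14). All these regional counts are of ethanol rats, where 38.7% of all tested probe sets were higher and 43.3% lower. Where only higher genes are counted, the others were lower or did not pass. In the NAc shell alone, 4 of the 5 neuronal and 3 of the 4 meningeal markers passed the filter.

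The genes most like the members over the 48 arrays of a region, once group means were removed, are given as a description. In the CeA, Gria3 1368691_at was most like Rnf150 (Pearson's r = 0.84), Slit2 (0.81) and LOC102555617 (0.81), and with run means removed as well it was most like Brinp1 (0.80), Gria1 (0.80) and Ppargc1b (0.75). Gria3 1376892_at was most like Chn1 (0.94), Lgi1 (0.93) and Syn2 (0.92), so its companions differ from those of the other probe set. Gria1 was most like Hpcal4 (0.95), Slc7a4 (0.91) and Pde2a (0.91), and Gria2 1387171_at was most like another probe set of Hpcal4 (0.97). Grin1 1368572_a_at was most like Kifc2 (0.93), the kainate subunit Grik5 (0.93) and Actl6b (0.92). All of these values come from the same arrays and share their RNA quality.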

How the data were processed

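RNA of 96 samples was measured on Affymetrix rat expression arrays after 2-cycle labelling of 25 ng of total RNA, per the labels' protocols. The deposited values are log2 values that the authors made by RMA, per the submitters' processing notes; its version is not given in the sources used here, and no raw intensities were used. The platform annotation gave 20826 probe sets a single gene symbol, 436 several, and 9780 were not in it. Arrays were grouped by region, treatment and hours from their titles. Nothing in the labels says how many animals gave an array, so p-values measure the spread between arrays. Title numbers fall into 4 runs in the CeA, a reading of the order of titles and not a recorded batch.

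Fits used limma 3.58.1 in R 4.3.3 (lmFit, eBayes with trend) per region on 6 group means, or on 12 for both regions, which treats arrays of both regions as independent. The 57 control probe sets were left out, probe sets above the 40th percentile of the mean were tested, and Benjamini-Hochberg adjustment ran over all 18625, with a threshold of 0.05. The scripts were tested on simulated data. Permutation tests used NumPy 2.4.6. Every member probe set was described, with full statistics for those passing or else for the 3 with the smallest p. From each list up to 3 genes with the smallest p were named, and likeness was the 3 highest Pearson r. Lists covered other ionotropic subunits, AMPA receptor partners, scaffold and kinases, metabotropic receptors, transport and synthesis, and cell type markers. The members and lists were chosen with earlier results of these data known. Alternatives were another threshold, filter or normalization, array weights, a Gapdh covariate, no trend, the run or the title number as a block, single runs, and arrays left out. Array number limits the precision.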

Additional observations from a re-analysis of the deposited data

Results flagged for a closer look

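In 8 of 120 tests of a member probe set within a group, the highest or lowest array stood apart from the rest. The groups of 11 arrays, CeA ethanol at 1 h and NAc shell ethanol at 24 h, were too large for this test. An array was judged by its gap to the nearest array as a share of the group's range against Dixon's 95% limit, where chance flags about 1 in 20 groups. In the CeA, Gria4 1383707_at was lowest in ethanol array number 30 at 6 h (11.70, nearest 12.02, share 0.4715) and highest in water array number 3 at 24 h (12.56, nearest 12.15, share 0.6372), and Grin2a 1380861_at was lowest in water array number 1 at 1 h (8.19, nearest 9.10, share 0.6678). In the NAc shell of ethanol rats, Grin2a 1380861_at was lowest in array number 33 at 1 h (6.41, nearest 7.83, share 0.5296), Gria2 1387171_at in number 43 at 6 h (12.92, nearest 13.19, share 0.5581) and Gria4 1396696_at in number 44 at 6 h (8.23, nearest 8.76, share 0.4758). In the NAc shell of water rats, Grin1 1368572_a_at was lowest in array number 22 at 1 h (10.80, nearest 11.20, share 0.5975) and Grin2b 1391708_at in number 29 at 6 h (7.23, nearest 7.99, share 0.7773). Arrays 30, 33, 43 and 44 are among those of low correlation with their region.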

How the results depend on the processing

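There were 1129 alternative counts of member probe sets past the threshold over 18 comparisons. Most of them, 960, came from leaving out 1 array at a time, a small change. Of the 1129, 1126 stayed within 1.5 times the main count. The other 3 concern ethanol against water over the 3 times in the CeA, where the count was 0 and became 1 with array weights and 1 with the run block, and 0 to 1 on leaving out 1 array at a time, the 1 being without CeA water array number 14 at 24 h. That 1 is Gria3 1368691_at, whose estimate ranged from 0.50 to 0.64 without single arrays, with adjusted p from 0.0246 to 0.427. Of 2991 alternative values of single probe sets, 2688 came from leaving out 1 array. Among the 2991, 2984 kept their direction and side of the threshold, 7 newly passed and 0 reversed. Those 7 are Gria3 in the CeA and Gria1 between regions in water rats. With the title number as a replicate block the CeA count was 0, Gria3 1368691_at 0.56 (adjusted p = 0.123) and Gria1 0.37 (adjusted p = 0.442), and no call changed. Same-numbered arrays share only a number, and the consensus correlation of the block was 0.0733 for CeA and -0.294 for NAc shell arrays. The cause of these changes was not tested.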
